A study of Apis mellifera with 18 samples.

Results

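The genes described here are the 100 genes of the honeybee queen brain whose levels moved most closely with a cluster of 4 phototransduction genes from 1 pool of brains to another. They were chosen on measured values. Each library's level was taken as log2(CPM + 1), where CPM is a gene's count divided by the gene total of its library and scaled to 1000000, and the mean of its treatment group was removed. Among the 10487 genes with a mean of at least 1 CPM, of 15314 genes in all, Pearson's r was computed with the mean of the 4 genes over all 18 libraries and with GB49544, a highly abundant gene that the tables of the study do not name. The 100 members are the genes with the highest r with the 4-gene mean, among the 8669 genes for which this r exceeded that with GB49544. The 5 genes of the rule were left out.

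The libraries were made from queens of Apis mellifera ligustica that were reared from the same colony, exposed to carbon dioxide and inseminated by instrument, and each library pooled 3 brains taken 24 h after insemination. Experiment 2 had queens given 6 µl of seminal fluid without sperm (Exp2_SF), semen (Exp2_INS) or Hayes saline (Exp2_HS). Experiment 1 had queens given seminal fluid (Exp1_SF), semen (Exp1_INS) or a mock insemination with no fluid (Exp1_MI). Each group had 3 libraries, A, B and C, so a difference between libraries of a group is one between pools of 3 queens, and p-values measure the spread between such pools. Gene totals ran between 26636844 and 51745752 counts, and reads that fell in no annotated gene made up 18.1% to 20.7% of the reads in Experiment 2 and 16.6% to 18.1% in Experiment 1.

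Insect photoreceptors turn light into a current through rhodopsin, a G protein, phospholipase C and cation channels of the TRP family, all held in a rhabdomere built on actin. In Drosophila, norpA encodes the phospholipase C, inaD the scaffold that gathers the cascade, and ninaC a class III myosin kinase that ties it to the cytoskeleton and helps to end the response. The cell bodies of photoreceptors lie in the retina of the compound eyes and in the ocelli. The axons of compound eye photoreceptors end in the first neuropils of the optic lobe. RNA of a whole brain therefore mixes many cell types, and fewer cells of a type and less RNA per cell cannot be told apart in it.

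The 4 genes were GB45512 (ninaC), GB41297 (TRP, the cation channel), GB41758 (GNB1, a G protein beta subunit) and GB43718 (myosin-IIIb, a second class III myosin). Their pairwise r ran between 0.811 and 0.918, and each had an r between 0.933 and 0.957 with their mean, of which it is part. In Exp2_SF libraries A, B and C, ninaC stood at 10.6, 20.5 and 39.9 CPM and TRP at 9.30, 19.0 and 29.7 CPM. In the same libraries GNB1 stood at 1.28, 1.61 and 6.68 CPM and myosin-IIIb at 59.9, 83.6 and 228.1 CPM. All 4 were thus lowest in library A and highest in library C of the 18 libraries, apart from myosin-IIIb, which was lowest in Exp2_INS library C at 57.8 CPM. Over the other 5 groups ninaC ran between 12.2 and 25.7 CPM and TRP between 10.1 and 26.5 CPM.

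In the 4-gene mean, Exp2_SF libraries A and C stood apart from the others. They held 78.2% of the squared deviation of the 4-gene mean over the 18 libraries, with a deviation from the group mean of −0.80 in library A, −0.17 in library B and 0.97 in library C on the log2 scale. Library C also differed from the other Exp2_SF libraries in measures that the 4 genes did not enter. GB49544 took 0.949%, 0.840% and 8.90% of gene counts in libraries A, B and C. Reads in no annotated gene made up 20.7%, 20.4% and 18.1% of the reads, and library C's share was the lowest of the 9 libraries of Experiment 2. Library A lay near library B in both measures. The part of these differences in the results below was not tested, and the main counts and medians that rest on the 2 libraries are given with and without them.

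The rule's own values describe the members as follows. The r with the 4-gene mean ran between 0.498 and 0.956 with a median of 0.631, against a median of −0.08 over all genes. The last members inside the list were GB47379, GB52883, GB51015, GB41667 and GB47754, with r between 0.514 and 0.498. The first genes outside it were GB53803, GB53636, GB47503, GB43310 and GB50418, with r between 0.492 and 0.483. A further 133 genes had an r as high as the last member but followed GB49544 at least as closely and were left out. The members' own r with GB49544 had a median of 0.442 over all 18 libraries and 0.771 within Experiment 2. Without Exp2_SF libraries A and C it was −0.20. Some members passed narrowly, such as GB42524, with an r of 0.6290 with the 4-gene mean and 0.6286 with GB49544. Mean levels of members ran between 1.05 and 1370 CPM with a median of 23.4 CPM, and the lowest mean count was 38.4.

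No member has a descriptive name in the sources used here, and the RefSeq table holds none of these identifiers, so members are given by identifier and their roles are not known here. Of the members, 2, GB51068 and GB47942, are listed among the study's phototransduction genes by gene number, which RefSeq pairs with a placeholder symbol and no role. None of the 37 genes that the study listed as changing in the same way across comparisons is a member. Among the members, 10 form 5 pairs of consecutive identifiers: GB41782 and GB41783, GB46301 and GB46302, GB47016 and GB47017, GB51797 and GB51798, and GB54417 and GB54418. Consecutive identifiers were not placed on the genome here, and within these pairs r ran between 0.695 and 0.819. Whether reads of such pairs could be shared in counting is not stated.

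The label of the cluster was checked against the 18 other genes of the study's phototransduction table. Only GB51068 and GB47942 of them had an r above 0.3 with the 4-gene mean, while 14 of the 18 had an r below 0, beside 68.2% of all genes, and the median was −0.09, beside −0.08. The value was −0.13 for norpA (GB42579), −0.03 for inaD (GB42762) and −0.22 for TRPgamma (GB55618), and for chaoptin (GB41723), a photoreceptor adhesion protein that is not in that table, it was −0.36. These signs rested on Exp2_SF libraries A and C. Without them 15 of the 18 had an r above 0, beside 81.1% of all genes, with a median of 0.310 beside 0.328, and the value was 0.393 for norpA, 0.280 for inaD, 0.327 for TRPgamma and 0.0908 for chaoptin. In both readings the table's other genes lay close to all genes, and the members are called after the rule that chose them, not after a cell type. Opsins, arrestins and screening pigment genes have no identifier in the tables and were not analysed here.

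**Figure D1:**
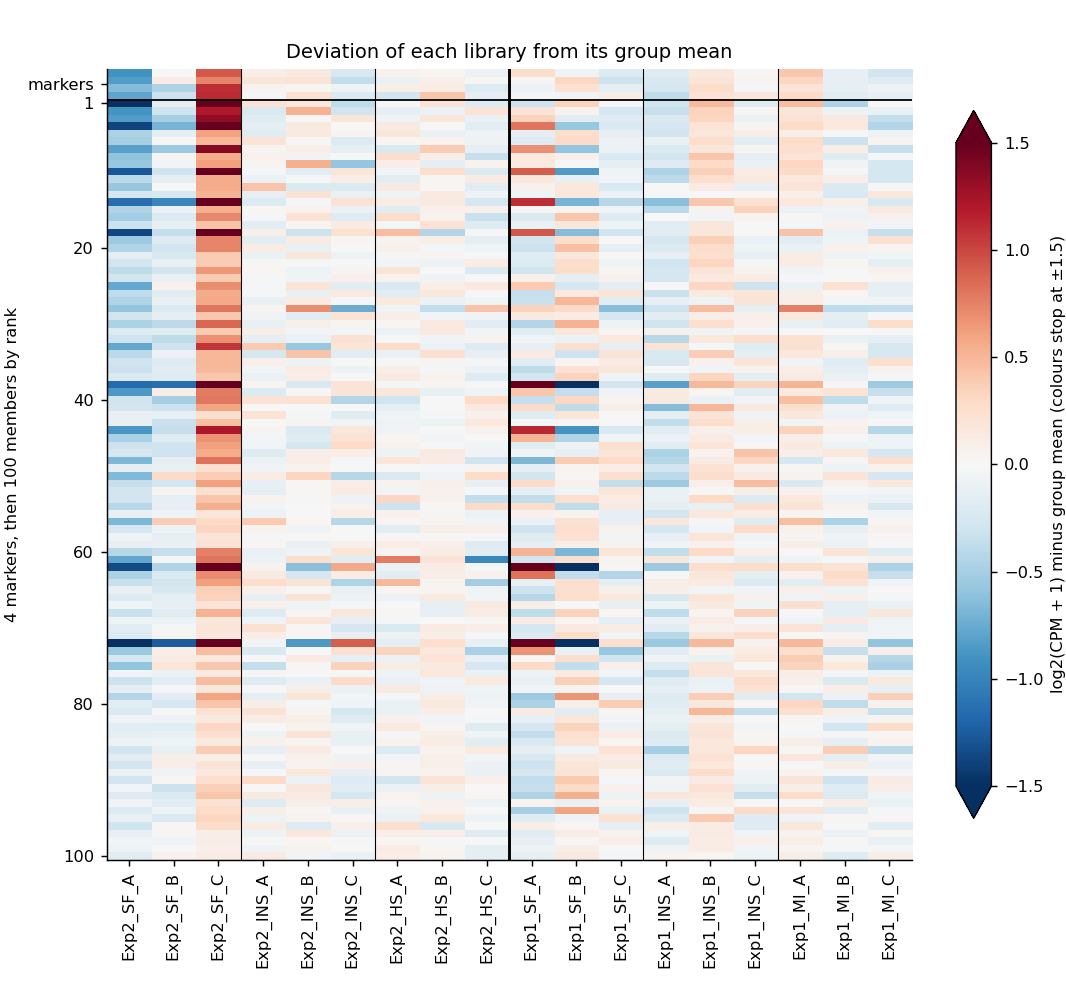
Deviation of each library from the mean of its treatment group on the log2(CPM + 1) scale (colour, red above and blue below the mean), for the 4 marker genes above the black line and the 100 members below it, ordered by r with the marker mean. Exp2_SF library C is above its group mean for all 100 members and Exp2_SF library A is above it for 0, and a subset of rows is also strongly red in Exp1_SF library A.

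GB48697 followed the 4 genes most closely, with an r of 0.956. It stood at 5.68, 16.9 and 62.2 CPM in Exp2_SF libraries A, B and C, at 14.0, 13.4 and 8.92 CPM in Exp2_INS and at 19.5, 22.4 and 16.6 CPM in Exp2_HS. In Experiment 1 it stood at 11.2, 18.01 and 14.0 CPM in Exp1_SF, at 17.6, 30.9 and 19.2 CPM in Exp1_INS and at 21.3, 10.7 and 15.1 CPM in Exp1_MI. Its lowest and its highest library of all 18 were thus both Exp2_SF pools, 10.95-fold apart, against a 2.88-fold range over the 9 libraries of Experiment 1. It changed by 1.73 log2 units for each log2 unit of the 4-gene mean, so it varied more steeply than the genes that chose it.

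GB46301, with an r of 0.916, stood at 0.577, 1.39 and 5.76 CPM in Exp2_SF libraries A, B and C, at 0.843, 2.11 and 0.763 CPM in Exp2_INS and at 1.03, 1.08 and 1.54 CPM in Exp2_HS. Its Experiment 1 libraries lay between 0.862 and 2.74 CPM. GB46302, which bears the next identifier, stood at 36.5, 47.6 and 97.5 CPM in Exp2_SF and had an r of 0.810 with GB46301. GB46302 had an r of 0.905 with the 4-gene mean in Experiment 1 and 0.721 in Experiment 2.

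The next members by r had the same order of the 3 Exp2_SF libraries. GB44505 stood at 1.52, 2.19 and 10.3 CPM in libraries A, B and C, and GB50479 at 0.547, 1.47 and 15.9 CPM, a 29.1-fold difference between A and C. GB52927 stood at 1.37, 1.83 and 9.86 CPM and GB52785 at 4.89, 5.60 and 56.2 CPM. In these 4 genes library B lay nearer to library A than to library C, which stood alone as the high pool.

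In other leading members the differences between libraries A and C were smaller. GB49826 stood at 116.2, 148.0 and 247.4 CPM in Exp2_SF libraries A, B and C, GB51369 at 57.1, 81.4 and 115.3 CPM and GB54418 at 10.7, 17.4 and 25.2 CPM. GB45884 stood at 46.9, 68.2 and 108.1 CPM and GB50095 at 66.5, 99.4 and 145.1 CPM. GB51798 (7.11, 8.73 and 14.8 CPM), GB49369 (16.1, 21.01 and 33.2 CPM) and GB43171 (37.04, 37.7 and 63.9 CPM) completed the 15 highest members apart from GB51068, which is described below. The ratio of library C to library A was close to 2 in these genes, well under that of the members described before them, and library B ranged from level with A in GB43171 to near midway in GB54418.

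Over all members, the level in Exp2_SF library C was 1.11 to 31.0 times that in library A, with a median of 1.87, and 45 members differed at least 2-fold. Library C was the highest of all 18 libraries for 63 members and the highest of the 9 Experiment 2 libraries for 80, and 79 members had library B between A and C. All genes together went the other way, with a median ratio of 0.853, and 1.99% of them differed at least 2-fold in this direction. Since the rule used these libraries, the counts describe the members and support nothing further.

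**Figure D2:**
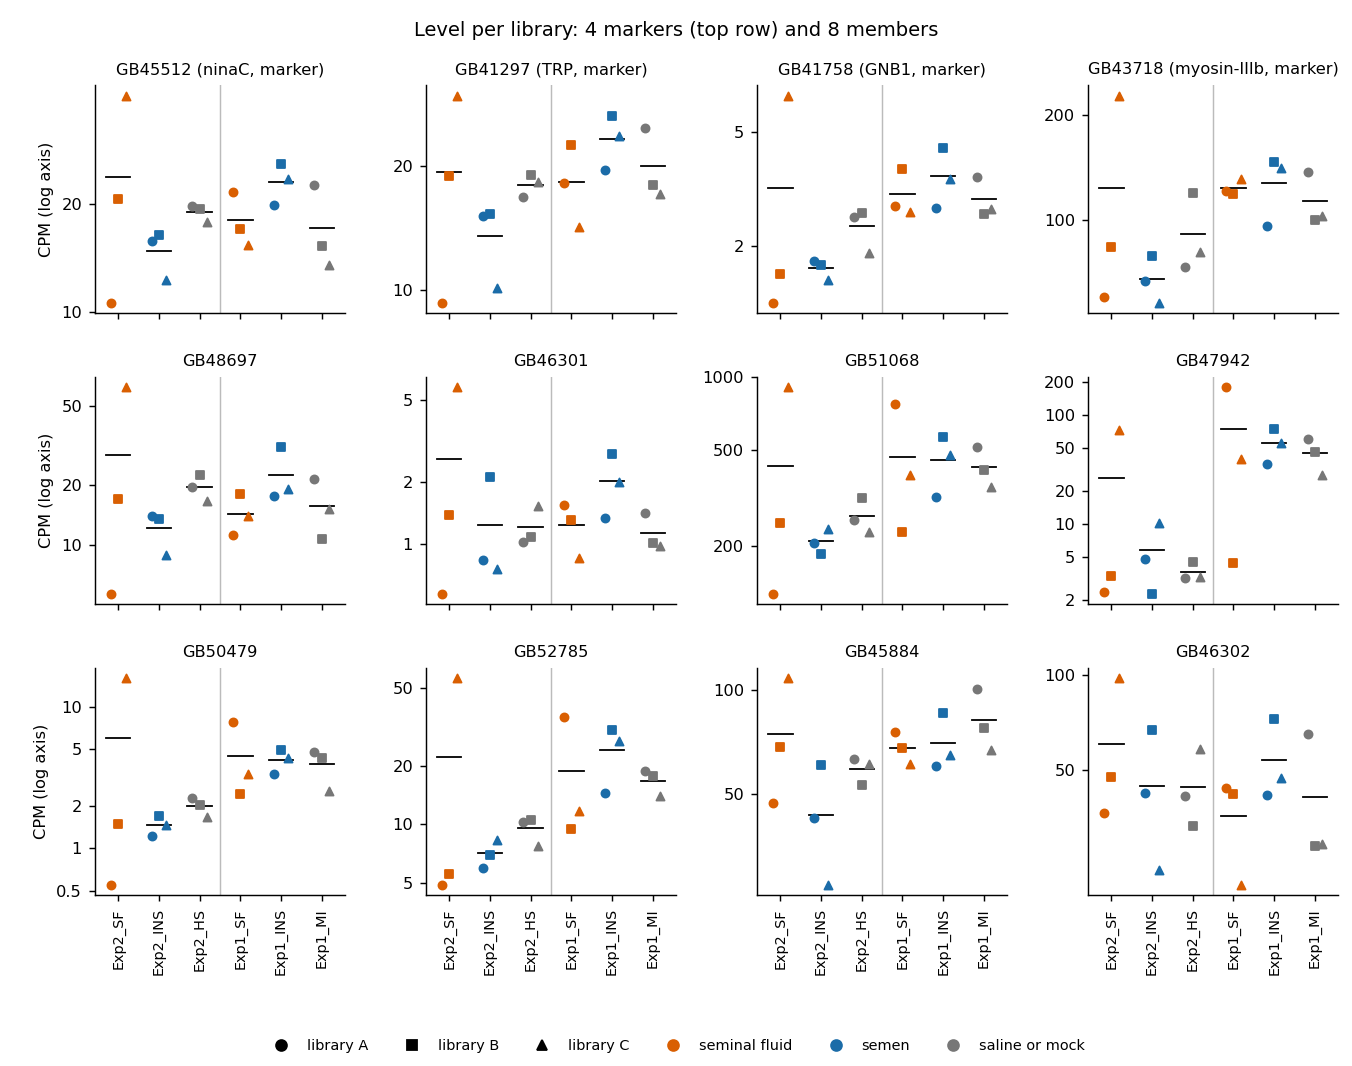
Level in CPM (log axis) of the 4 marker genes and 8 members in each of the 18 libraries, by treatment group, with a symbol for each library and a bar at the group mean. In every panel Exp2_SF library C (orange triangle) is the highest Experiment 2 library, while Exp1_SF library A (orange circle, Experiment 1 side) is also high for GB51068, GB47942, GB50479 and GB52785 and not for GB48697.

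Without Exp2_SF libraries A and C the members no longer stood out. In the other 16 libraries their r with the 4-gene mean had a median of 0.345, beside 0.328 over all genes, and 26 of the 100 had an r above 0.5, beside 27.5% of all genes. The same rule applied to those 16 libraries kept 0 of the 100 members. The 4 genes still moved together there, each with an r between 0.817 and 0.902 with their mean. Their relation to GB49544 turned round, with an r of 0.538 between the 4-gene mean and GB49544 over 18 libraries and −0.72 over 16. In those 16 libraries the 4-gene mean also went up with the share of reads in no annotated gene, with an r of 0.803, which over 18 libraries was −0.42. These values are descriptions of 16 or 18 libraries with their group means removed, and carry no test.

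Within Experiment 1 alone, whose 9 libraries do not include the 2 that stand apart, the r of the 99 members that passed the level filter had a median of 0.401, beside 0.381 over all genes, and 33 members had an r above 0.5, beside 34.5% of all genes. Within Experiment 2 alone the median over 99 members was 0.834, beside −0.37 over all genes. Applied to Experiment 1 alone, the rule chose 3 of the members, GB46302, GB45884 and GB46301, and applied to Experiment 2 alone it chose 54. The choice of members thus came mainly from Experiment 2.

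The same measure was then read in libraries that had no part in the choice. The 100 genes chosen in Experiment 2 had, for the 98 that passed the level filter in Experiment 1, a median r of 0.240 there, beside 0.381 over all genes, and 75 of the 98 were above 0, beside 81.5% of all genes. The 100 genes chosen in Experiment 1 had a median r of −0.57 in Experiment 2, beside −0.37 over all genes, and 4 of 100 were above 0, beside 17.5%. Neither list kept its r in the other experiment above that of all genes. When Exp2_SF libraries A and C were left out of Experiment 2, the medians were 0.475 for genes chosen in Experiment 2 and read in Experiment 1 (all genes 0.381) and 0.459 the other way (all genes 0.240).

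**Figure D3:**
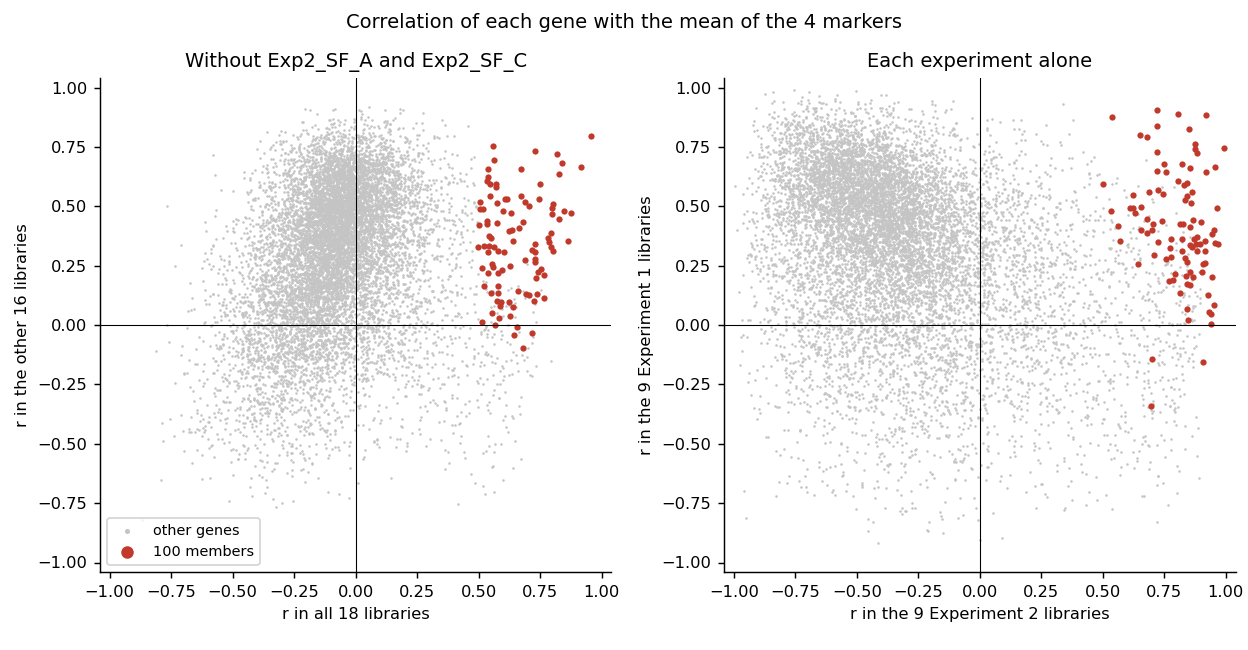
Pearson's r of each gene with the mean of the 4 markers: on the left, all 18 libraries (horizontal) against the 16 without Exp2_SF_A and Exp2_SF_C (vertical), and on the right, the 9 libraries of Experiment 2 (horizontal) against the 9 of Experiment 1 (vertical). The members (red) lie at the right by choice, and along the vertical axes they spread over the same range as other genes (grey), with medians of 0.345 and 0.401 beside 0.328 and 0.381.

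An r above 0.5 in both experiments was found for 31 members, beside 0.457% of all genes, and 22 of these also had it in the 16 libraries. The Experiment 2 part of this count was fixed by the choice of members, and the Experiment 1 part lay at the share of all genes given above, so nothing is read from it. In the 7 libraries of Experiment 2 other than Exp2_SF libraries A and C, 11 of the 22 had an r above 0.5 and 5 had one below 0, among them GB51798 at −0.36. The 22 include 6 of the 15 highest members, GB48697, GB46301, GB51369, GB54418, GB45884 and GB51798. GB45884 had an r of 0.890 in Experiment 1, 0.805 in Experiment 2 and 0.720 in the 16 libraries. GB54418 had 0.826, 0.851 and 0.635, and GB48697 had 0.744, 0.993 and 0.796. Members near the foot of the list are among them as well. GB45690 had an r of 0.798 in Experiment 1, 0.651 in Experiment 2 and 0.755 in the 16 libraries, and in Exp2_SF it differed only 1.14-fold between libraries C and A. The 22 genes were picked after their values were seen.

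Another description covers 13 members, picked after their values were seen. They are those that lay at least 0.5 log2 units above the group mean in Exp1_SF library A. Of all genes, 1.92% did so. The 4-gene mean itself deviated by only 0.04 in that library. The 13 genes are GB50479, GB52927, GB51068, GB52785, GB46427, GB50098, GB43087, GB51189, GB51790, GB50196, GB51211, GB47942 and GB54417, and they include both members of the phototransduction table.

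GB47942 had the widest range of them. It stood at 2.37, 3.33 and 73.5 CPM in Exp2_SF libraries A, B and C, at 4.84, 2.30 and 10.3 CPM in Exp2_INS and at 3.21, 4.54 and 3.29 CPM in Exp2_HS. In Experiment 1 it stood at 180.7, 4.41 and 39.5 CPM in Exp1_SF, at 35.8, 75.1 and 55.7 CPM in Exp1_INS and at 59.9, 45.9 and 27.9 CPM in Exp1_MI. Its Exp1_SF libraries A and B were therefore 41.0-fold apart, as wide a gap as the 31.0-fold gap between Exp2_SF libraries C and A.

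GB51068, the other phototransduction member and a far more abundant gene, stood at 126.2, 248.3 and 913.8 CPM in Exp2_SF libraries A, B and C, at 204.8, 185.4 and 234.4 CPM in Exp2_INS and at 254.9, 314.9 and 227.1 CPM in Exp2_HS. In Exp1_SF it stood at 774.6, 228.7 and 392.8 CPM, while Exp1_INS and Exp1_MI together spanned 320.1 to 564.6 CPM. GB50196 stood at 143.0, 266.1 and 1277 CPM in Exp2_SF and at 1713, 160.6 and 534.3 CPM in Exp1_SF. GB50098 stood at 7.99, 8.12 and 98.2 CPM in Exp2_SF and at 80.1, 7.07 and 18.3 CPM in Exp1_SF. In each of these genes 1 pool of each experiment's seminal fluid group was high and the other pools of that group were lower, and the pool letters differed between experiments.

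Exp1_SF library A, which picked the 13 genes, is among the 16 libraries read here. A high r among them and a low r with the 4 markers are favoured by that choice. Over the 16 libraries the pairwise r of the 13 genes had a median of 0.826, and their r with the 4-gene mean had a median of 0.144. Among the other 87 members the median pairwise r was 0.290, and between the 13 and the 87 it was −0.12. All 13 were below their group mean in Exp1_SF library B, which a high library A also favours. The 13 are thus set apart from the 87 by Exp1_SF library A, while all 100 members were above the group mean in Exp2_SF library C. No test was made of this split, since it was drawn from the same values, and these values give it no further support.

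Group differences were not used by the rule, which removed group means, and were tested across all genes. The rule did use deviations within groups, and such deviations enter the error of each test. The median SD within groups was 0.281 log2 units for the members, beside 0.191 for all genes. In fits that include Exp2_SF, low counts of members called, or at a low p, are thus favoured by the choice of members. Nothing is read from them. In all 6 comparisons of treatments within an experiment, edgeR's quasi-likelihood test called 0 of the 100 members at an adjusted p under 0.1. Few genes were called at all: 0.429% of genes tested for Exp2_SF against Exp2_HS, 0.00840% for Exp2_SF against Exp2_INS, 0.328% for Exp2_INS against Exp2_HS, 0.162% for Exp1_SF against Exp1_MI, 0% for Exp1_SF against Exp1_INS and 0.128% for Exp1_INS against Exp1_MI. In the same order 7, 4, 7, 12, 10 and 5 members had an unadjusted p under 0.05, beside 10.5%, 18.6%, 9.41%, 12.8%, 5.78% and 5.10% of all genes. DESeq2 called 0, 2, 1, 6, 0 and 2 members, beside 2.42%, 8.47%, 2.78%, 2.59%, 0.00850% and 0.799% of genes. All 100 members passed the count filter in these fits.

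Seminal fluid and saline gave the members no common direction, with a log2 fold change above 0 for 54 of the 100 in Exp2_SF against Exp2_HS and a median of 0.02, beside 47.8% and −0.01 over all genes. The largest difference was that of GB47942 at 2.94 (SE 1.23, edgeR adjusted p = 0.457), which rests on library C alone, as its CPM values above show. Leaving out Exp2_SF library C, the higher of the 2 libraries that stand apart, brought 7 members past the threshold, all lower in Exp2_SF than in Exp2_HS, beside 0.414% of genes called lower in that fit. Library C lay above its group mean for all 100 members by the choice of members, so leaving it out lowers the Exp2_SF mean of each of them, and nothing is read from these calls. The members' median log2 fold change was then −0.35, with 6 of the 100 above 0. The 7 were GB53209, GB50596, GB51088, GB45437, GB43171, GB51043 and GB42524. With both library A and library C left out, Exp2_SF keeps 1 library, assumed to vary like the other groups, and edgeR called 0 members, beside 0.127% of genes. The median was then −0.28 with 17 members above 0, and this fit too leaves out library C.

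Against semen, seminal fluid in Experiment 2 gave a log2 fold change above 0 for 86 members with a median of 0.29, beside 50.3% and 0.0016 over all genes. This direction rested on the libraries that stand apart: without Exp2_SF libraries A and C, 41 members were above 0, the median was −0.07 and edgeR again called 0 members, beside 0% of genes. In 8 members all 3 Exp2_SF libraries lay above all 3 Exp2_INS libraries, beside 10.8% of all genes, and in 0 they lay below, beside 8.45%. By the choice of members, Exp2_SF library C lay above the group mean for all 100 and library A for 0. This favours overlap with another group, so nothing is read from these counts. The 3 highest fold changes were those of GB47942, GB50098 and GB50479, all of the 13-gene subset, with GB50098 at 2.18 (SE 0.90, edgeR adjusted p = 0.248) and GB47942 at 2.23 (SE 1.18, adjusted p = 0.335). GB44533 was among the 8, at 18.5, 20.98 and 29.8 CPM in Exp2_SF and at 13.4, 16.1 and 14.8 CPM in Exp2_INS, and the log2 fold change came to 0.63 (SE 0.21, adjusted p = 0.231). DESeq2 called GB44533 (adjusted p = 0.0798) and GB46612 (adjusted p = 0.0981).

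Semen against saline in Experiment 2 is a comparison that neither of the libraries that stand apart enters. Here 83 members had a log2 fold change below 0 and 17 above, beside 46.0% of all genes above 0. The median was −0.22 beside −0.01 over all genes. In 42 members all 3 Exp2_INS libraries lay below all 3 Exp2_HS libraries, beside 6.76% of all genes, and in 0 members they lay above, beside 7.01%. On TMM-scaled totals, in place of gene totals, the counts were 37 and 0, beside 7.79% and 6.71% of all genes. The log2 fold changes of the 42 ran between −1.08 and −0.12. They include 3 of the 15 highest members, 10 of the 22 with an r above 0.5 in both experiments and in the 16 libraries and 0 of the 13-gene subset. The members share their deviations, so 42 genes are not 42 separate observations of 3 pools against 3. The 2 libraries nevertheless set the membership. The 100 genes that the rule chose without them, none of them a member, held no such shift, with 55 above 0 and a median of 0.01.

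The 4 marker genes had the same direction. In Exp2_INS libraries A, B and C ninaC stood at 15.7, 16.3 and 12.2 CPM, against 19.7, 19.3 and 17.7 CPM in Exp2_HS. TRP stood at 15.1, 15.3 and 10.1 CPM in Exp2_INS, against 16.8, 19.0 and 18.3 CPM in Exp2_HS. GNB1 did not overlap between the groups either, while myosin-IIIb did, at 66.4, 78.5 and 57.8 CPM in Exp2_INS against 73.3, 119.2 and 80.9 CPM in Exp2_HS. Their log2 fold changes lay between −0.35 and −0.47 and none passed edgeR's test (adjusted p between 0.8001 and 0.857). GB49544 was lower too, at 0.926%, 0.957% and 1.40% of gene counts in Exp2_INS against 4.74%, 2.20% and 2.60% in Exp2_HS, and its part in the members' direction was not tested.

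No member passed the test in the 9-library fit, in which Exp2_SF enters the estimate of the spread. In the fit of the 6 libraries compared, 4 members were called lower: GB53209, GB50596, GB51088 and GB42738. In that fit 0.111% of genes were called lower. In the fit without Exp2_SF libraries A and C, which leaves library B alone in that group, the log2 fold changes of the 4 lay between −0.84 and −0.54.

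GB50596 stood at 106.9, 121.6 and 119.0 CPM in Exp2_INS, against 203.0, 220.5 and 177.4 CPM in Exp2_HS. Its log2 fold change was −0.78 (SE 0.11, edgeR adjusted p = 0.0577) in the 6-library fit and −0.77 (SE 0.36, adjusted p = 0.560) in the 9-library fit, so the size held while the SE went up. Its Exp2_SF libraries stood at 114.1, 120.2 and 289.6 CPM, with A and B near the semen pools and C above all the saline pools.

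GB51088 stood at 20.8, 19.1 and 18.7 CPM in Exp2_INS, against 27.9, 33.2 and 28.9 CPM in Exp2_HS, and the log2 fold change came to −0.60 (SE 0.09, edgeR adjusted p = 0.0839) in the 6-library fit. GB42738 stood at 25.6, 23.7 and 24.4 CPM in Exp2_INS, against 32.1, 38.3 and 38.1 CPM in Exp2_HS, and the log2 fold change came to −0.54 (SE 0.09, adjusted p = 0.0885). In the 9-library fit the adjusted p was 0.396 for GB51088 and 0.356 for GB42738. In both genes the groups were separate and each group was narrow.

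**Figure D4:**
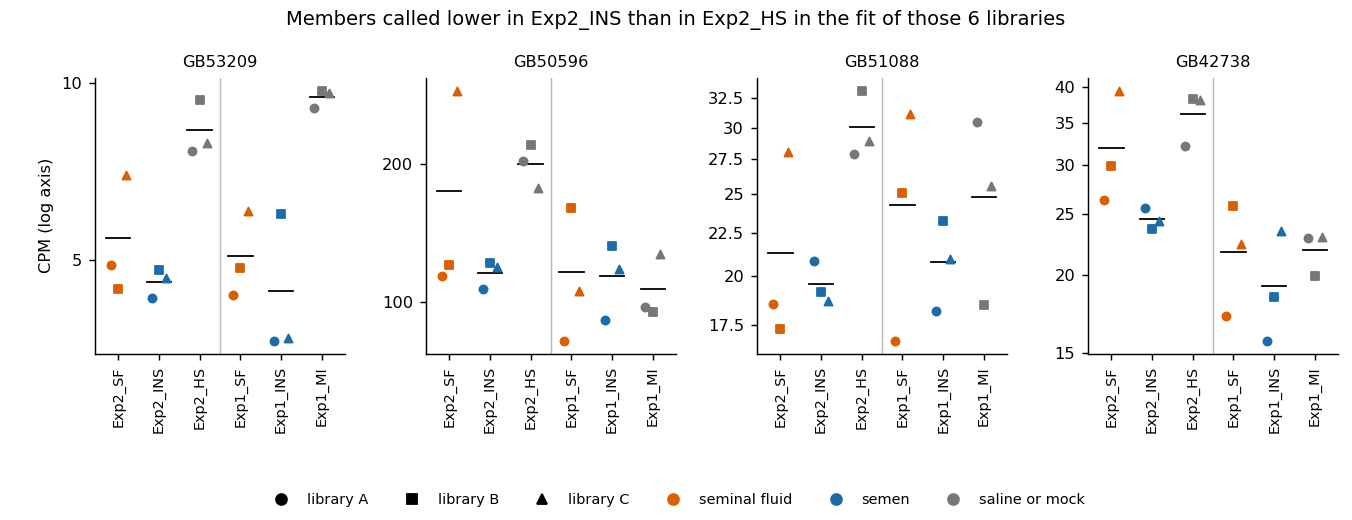
Level in CPM (log axis) per library of the 4 members called lower in Exp2_INS than in Exp2_HS when only those 6 libraries were fitted, with a symbol for each library and a bar at the group mean. The 3 semen libraries lie below the 3 saline libraries in every panel, and GB53209 is in addition lower in all semen and seminal fluid libraries of both experiments than in the controls of the same experiment.

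Experiment 1 held no like shift. Semen against mock insemination gave a log2 fold change above 0 for 52 members with a median of 0.02, beside 48.6% and −0.01 over all genes. Seminal fluid against mock insemination gave 63 above 0 with a median of 0.08, beside 48.6% and −0.01. Seminal fluid against semen gave 65 above 0 with a median of 0.08, beside 51.1% and 0.0047. In semen against mock insemination 4 members had all 3 Exp1_INS libraries below all 3 Exp1_MI libraries and 4 had them above, beside 3.58% and 4.58% of all genes.

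The difference between the experiments was tested as an interaction over 18 libraries. Exp2_SF enters this fit too, so low counts of members called or at a low p are again favoured by the choice of members. For semen against control 84 members had a value below 0 and 16 above, beside 47.3% of all genes above 0, with a median of −0.26 beside −0.01 over all genes. It called 0 members, and 0% of all genes, at an adjusted p under 0.1, and 3 members had an unadjusted p under 0.05, beside 3.18% of all genes. For seminal fluid against control it also called 0 members, beside 0.00830% of genes, with 2 at an unadjusted p under 0.05, beside 11.6%. There 48 members had a value above 0, beside 51.6% of all genes. For seminal fluid against semen it called 0 members and 0% of genes, with 3 at an unadjusted p under 0.05, beside 14.5%. There 85 members had a value above 0, beside 53.2% of all genes, and the median was 0.22 beside 0.03. Without Exp2_SF libraries A and C edgeR again called 0 members in each of the 3. For semen against control 17 members were then above 0, with a median of −0.23 beside 0.02 over all genes. For seminal fluid against control 16 were above 0, with a median of −0.33 beside 0.009. For seminal fluid against semen 34 were above 0, with a median of −0.12 beside −0.007. This fit leaves out library C, which lay above its group mean for every member by the choice of members. Nothing is therefore read from its values for seminal fluid. Over all 18 libraries DESeq2 called 0 members in each of the 3, beside 0%, 1.10% and 3.27% of genes. The controls of the experiments differ in kind, saline in Experiment 2 and mock insemination in Experiment 1, so the experiment and the control cannot be told apart.

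GB53209 was the member with the smallest p in all 4 comparisons with a control. It was noticed for its values and stands outside the rule for naming genes. It stood at 4.89, 4.46 and 6.97 CPM in Exp2_SF and at 4.31, 4.80 and 4.65 CPM in Exp2_INS, against 7.68, 9.36 and 7.91 CPM in Exp2_HS. In Experiment 1 it stood at 4.35, 4.84 and 6.06 CPM in Exp1_SF and at 3.63, 5.98 and 3.68 CPM in Exp1_INS, against 9.09, 9.72 and 9.63 CPM in Exp1_MI. The 12 libraries of queens given semen or seminal fluid thus lay below the 6 control libraries, within each experiment with no overlap. The share of all genes that did so in both experiments is not given here, so nothing is read from this separation.

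Its log2 fold change was −0.62 (SE 0.21, edgeR adjusted p = 0.390) for Exp2_SF and −0.84 (SE 0.21, adjusted p = 0.219) for Exp2_INS against Exp2_HS. It was −0.81 (SE 0.19, adjusted p = 0.215) for Exp1_SF and −1.09 (SE 0.19, adjusted p = 0.104) for Exp1_INS against Exp1_MI. None of these passed the threshold of 0.1. DESeq2 called 3 of the 4, with adjusted p of 0.0234 for Exp2_INS, 0.0188 for Exp1_SF and 0.000127 for Exp1_INS, and 0.194 for Exp2_SF. The 2 comparisons of an experiment share its control libraries.

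**Figure D5:**
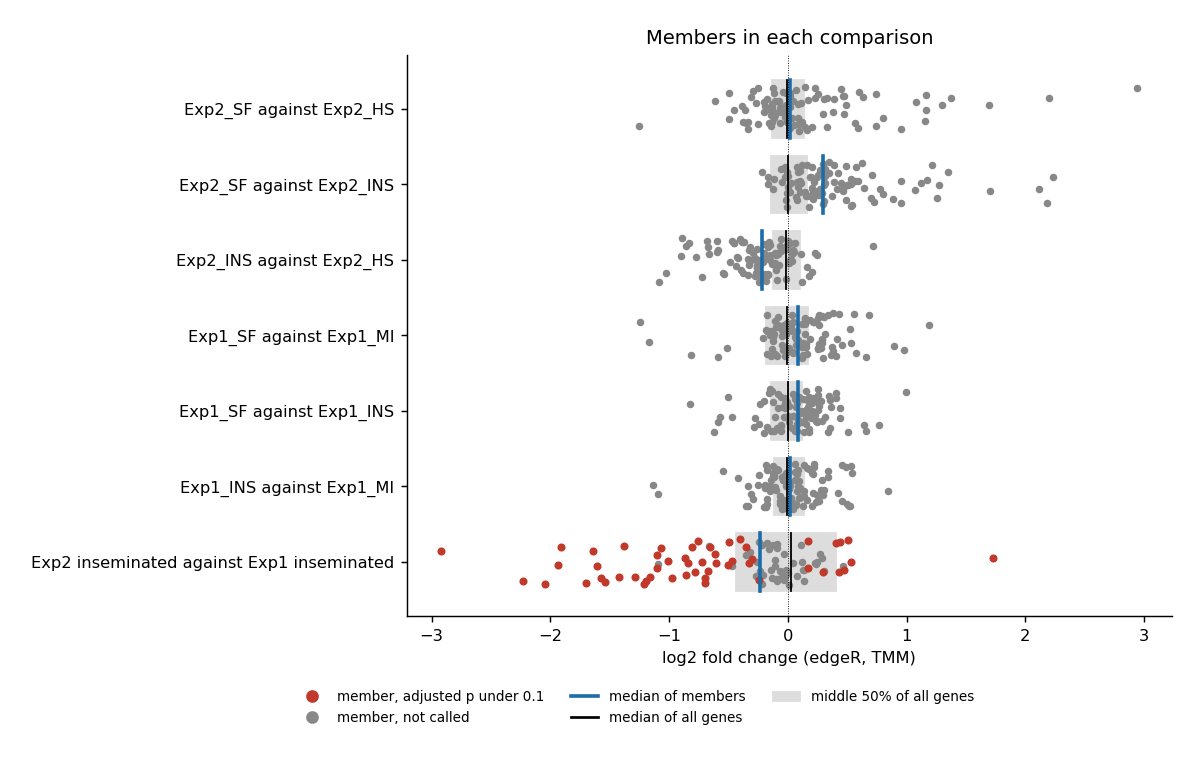
Log2 fold change from edgeR (horizontal) of the 100 members (points, spread vertically for visibility) in 6 comparisons within experiments and 1 between them, with the median of the members (blue bar), the median of all genes (black bar) and the middle 50% of all genes (grey box). No point is called (red) within an experiment. The members' median lies at −0.22 in Exp2_INS against Exp2_HS and at 0.29 in Exp2_SF against Exp2_INS. Between experiments 52 members are called, beside 8415 of 12052 genes.

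Between experiments many members differed, as did most genes. Over inseminated queens, Exp2_SF and Exp2_INS against Exp1_SF and Exp1_INS, edgeR called 10 members higher and 42 lower, beside 36.4% and 33.4% of genes and 69.8% in either direction. A log2 fold change above 0 was found for 26 members, beside 51.3% of genes, and the median of the members was −0.24 beside 0.02 over all genes. The split depends on the scaling: TMM factors ran between 1.11 and 1.30 in Experiment 2 and between 0.703 and 0.909 in Experiment 1, and on gene totals alone the median was 0.31 beside 0.58 over all genes, with 49 members called higher and 21 lower, beside 67.8% and 12.4% of genes. The members' median lay below that of all genes on both scales. Without Exp2_SF libraries A and C, 6 were called higher and 61 lower, beside 33.0% and 31.2% of genes, and without library C alone 5 and 68, beside 35.5% and 33.7%. Leaving out library C lowers the Experiment 2 mean of every member by the choice of members. The experiments were run on different queens and cannot be told apart from any other difference between those runs.

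GB49478 had the smallest adjusted p. It stood at 8.23, 18.04 and 17.1 CPM in Exp2_SF and at 18.8, 14.4 and 10.2 CPM in Exp2_INS, against 27.9, 35.1 and 27.3 CPM in Exp1_SF and 50.1, 44.9 and 39.1 CPM in Exp1_INS. Its log2 fold change was −1.91 (SE 0.21, edgeR adjusted p = 1.34e-06). GB50095, GB47379 and GB42624 followed, with log2 fold changes of −1.70 (SE 0.19), −1.19 (SE 0.14) and −1.94 (SE 0.23). In each of the 4 the highest inseminated library of Experiment 2 lay below the lowest of Experiment 1.

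Among the members that were higher in Experiment 2, GB51015 stood at 53.7, 53.4 and 59.6 CPM in Exp2_SF and at 50.1, 51.5 and 49.4 CPM in Exp2_INS, against 23.4, 26.0 and 27.6 CPM in Exp1_SF and 24.99, 31.2 and 30.3 CPM in Exp1_INS. Its log2 fold change was 0.40 (SE 0.06, edgeR adjusted p = 5.24e-05). GB53411, GB40945 and GB44533 had log2 fold changes of 1.73 (SE 0.29), 0.53 (SE 0.12) and 0.50 (SE 0.16). These 8 genes kept their direction on gene totals alone.

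The 13-gene subset was picked for high levels in Exp1_SF library A, which enters the Experiment 1 mean of this comparison. That choice favours values below 0, so nothing is read from the direction or the calls of the subset. All 13 had a log2 fold change below 0, between −2.92 for GB47942 (SE 0.85, edgeR adjusted p = 0.00682) and −0.66 for GB51790 (SE 0.35, adjusted p = 0.112), and 11 were called. Of the 4 markers, the log2 fold change was −0.67 (SE 0.25, adjusted p = 0.0273) for ninaC, −0.90 (SE 0.22, adjusted p = 0.00212) for TRP, −1.01 (SE 0.33, adjusted p = 0.0131) for GNB1 and −0.99 (SE 0.26, adjusted p = 0.00361) for myosin-IIIb. GB49544 was lower as well, at −2.05 (SE 0.53, adjusted p = 0.00326). On gene totals alone all 13 genes of the subset still had a log2 fold change below 0 and 8 were called. On that scale ninaC was at −0.12 (adjusted p = 0.632), TRP at −0.35 (adjusted p = 0.128), GNB1 at −0.49 (adjusted p = 0.142) and myosin-IIIb at −0.46 (adjusted p = 0.0859), so that only myosin-IIIb of the 4 kept its call there.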

How the data were processed

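Brain RNA was sequenced as stranded mRNA libraries, single-end at 120 bp. Per gene, raw counts were deposited. According to the labels and methods the authors trimmed reads with Trimmomatic, removed ribosomal reads with SortMeRNA, aligned with STAR 2.4.2a to assembly 4.5 and counted with HTSeq, whose strand and overlap settings are not given in the sources used here. The 5 rows for unassigned reads stayed out of totals and tests. Counts are limited by depth, and gene totals are given above.

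Differences were tested with edgeR 4.0.16 in R 4.3.3 (quasi-likelihood F test, two-sided, TMM, a minimum of 10 counts in any 3 libraries, Benjamini-Hochberg over all genes tested, adjusted p under 0.1). The 9 libraries of an experiment shared a fit for comparisons within it, and all 18 for comparisons between experiments. Fold changes are log2, and each SE was derived from the F statistic. DESeq2 1.42.0, used in version 1.10.1 by the authors at a false discovery rate of 10%, was an alternative. Scripts were tested on simulated data.

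The members, lists and alternatives were chosen with earlier results of these data known. Named genes are the 4 markers and GB49544, the 15 members of highest r, members in the study's tables, up to 4 called members in each direction per comparison, and 5 genes on each side of the list's end. The r of members used the values that chose them and carries no test. Alternatives were DESeq2, RLE normalization, no filter on low counts, a minimum of 1 CPM in 3 libraries, a threshold of 0.05, a fit of only the 6 libraries of a comparison, a fit of all 18, a replicate block, each library left out, both Exp2_SF libraries A and C left out, and members chosen without them. Library sizes without scaling factors were added after the data were seen. Sequences and genome positions of the members were not analysed here.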

Additional observations from a re-analysis of the deposited data

How the results depend on the processing

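Membership rested on a few libraries and choices. Of the 100 members, the rule kept 0 without Exp2_SF_A and Exp2_SF_C, 59 with TMM-scaled library sizes, 44 with Spearman's rho, 54 with no condition on GB49544, 3 in Experiment 1 only and 54 in Experiment 2 only, against 80 at a mean of at least 5 CPM and 98 with log2(CPM + 0.1). Leaving out single libraries kept between 4 (Exp2_SF library C) and 96, and 62 without Exp2_SF library A. The median r of genes chosen in Experiment 1 and read in Experiment 2, −0.57, was −0.32 with Spearman's rho and turned to 0.459 without Exp2_SF_A and Exp2_SF_C, where the reverse reading was 0.475. The cause was not tested.

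Of the comparisons with 0 members called by edgeR, DESeq2 called 2 for Exp1_INS against Exp1_MI, 6 for Exp1_SF against Exp1_MI, 1 for Exp2_INS against Exp2_HS and 2 for Exp2_SF against Exp2_INS. The shares of all genes that DESeq2 called are given above. For Exp1_INS against Exp1_MI edgeR's count was 1 with no filter, beside 18 of 13869 genes. With all 18 libraries it was 1, beside 63 of 12052 genes. For Exp1_SF against Exp1_MI it was 1 with all 18, beside 619 of 12052 genes. For Exp2_INS against Exp2_HS it was 4 with only the 6 libraries compared, beside 42 of 11737 genes. For Exp2_SF against Exp2_HS members called ran between 0 and 7 over libraries left out. The 7 came without library C of Exp2_SF, beside 95 of 11845 genes. Leaving out single libraries gave 0 to 1 for Exp1_INS against Exp1_MI. The 1 was GB53209 without Exp1_INS library B, beside 5 of 11700 genes. For the difference between experiments in seminal fluid against control it also gave 0 to 1. That 1 was GB45437 without Exp2_SF library C, beside 4 of 12030 genes. For Exp2 against Exp1 it gave 46 to 73, beside 8050 of 12039 and 8325 of 12030 genes in those fits. In the others it gave 0. The labels do not say whether library letters pair samples. The deviations of same-lettered libraries had an r between −0.27 and 0.224 over 18 pairs, with 5 above 0.1 and 6 below −0.1. These values do not settle whether the letters pair samples. With the letter as a replicate block, 0 members were called in each comparison within an experiment and in each difference between experiments. For Exp2 against Exp1 52 members were called, as without the block, beside 8391 of 12052 genes.

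Depth was not a close limit for most members, whose lowest mean count was 38.4. The mean level was under 5 CPM in 20 members. In Exp2_SF library A, GB50479 stood at 0.547 CPM, GB46301 at 0.577 CPM and GB42514 at 0.213 CPM. Ratios to library A rest on few counts in such members. With 3 pools a group, a p that misses the threshold does not show that groups did not differ.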
